A study of Mus musculus with 10 samples.

Results

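The 10 genes followed here belong to the Notch pathway and were measured in thymus of mice that lack Usp7, a deubiquitinating enzyme, in their hematopoietic cells. They were taken from the count table by symbol and comprise 3 receptors (Notch1, Notch2, Notch3), 1 ligand (Dll4), 2 nuclear partners (Rbpj, Maml1) and 4 genes that Notch activates in thymocytes (Ptcra, Dtx1, Hes1, Nrarp). All 10 were found among the 35375 features of the table, and all 10 passed the filter on low counts, which left 19511 features for testing. Total RNA of whole thymus, taken 3 days after birth, had been depleted of ribosomal RNA and sequenced as stranded libraries. The mice had the C57BL/6J background. They were homozygous KO (n = 3), heterozygous KO (n = 3) or wild type (n = 4) for Usp7. The series description splits the wild type into 2 mice with induced cre and 2 without, but the labels do not say which is which. Column names read wt wt for wild type 1 and 2 and wt het for wild type 3 and 4. What the second word stands for is not stated, so the 4 were kept as 1 group. The cre driver, the deleted part of Usp7 and whether mice shared a litter are not given in the sources used here. The knockout is described for blood-forming cells, so the thymic stroma, which makes Dll4, is not described as carrying it.

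Notch receptors sit in the membrane and are cut after they bind a ligand on a neighbouring cell. The freed intracellular part enters the nucleus, joins the DNA-binding protein RBPJ and a Mastermind coactivator such as MAML1, and switches on target genes. In the thymus, DLL4 on epithelial cells engages NOTCH1 on incoming progenitors and commits them to the T lineage. It carries them towards the double-positive stage, by which Notch1 expression has normally fallen.

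Usp7 itself was measured at 303, 422 and 408 counts per 1000000 library counts (CPM) in homozygous KO, at 472, 516 and 516 in heterozygous KO, and at 676, 670, 594 and 589 in wild type. The 3 groups did not overlap. Transcripts were therefore still counted in homozygous KO, and since the deleted part is not known this count checks the labels only in its order. The libraries held 39.8 to 122 M counts. Thymocyte markers were abundant in every library, with a summed level of Ptprc, Cd3e, Cd3d, Lck and Cd2 of 3156 to 3709.8 CPM. Xist, which marks female tissue, was above 100 CPM in 1 library of homozygous KO, in 0 of heterozygous KO and in 3 of wild type, so sex was not balanced. The animal numbers in the titles fall into a block from 44 to 51 (homozygous KO 1, heterozygous KO 1, wild type 1 to 3) and a block from 56 to 63 (the other 5 libraries). What the blocks stand for is not stated, and only wild type 4 represents the controls in the later one.

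RBPJ binds the core sequence TGGGAA, and E proteins, which regulate Ptcra together with Notch, bind CANNTG. The 250 bases before the start of transcription were read from RefSeq promoters (GRCm38.p6) on both strands for the 3 members that rose in homozygous KO, for Ptcra, which holds both motifs, and for Hes5, a classical Notch target that fell. Capitals mark each TGGGAA (written TTCCCA where it lies on the other strand) and each CANNTG. No stretch was shared between the motifs in these 5 windows.

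Notch1: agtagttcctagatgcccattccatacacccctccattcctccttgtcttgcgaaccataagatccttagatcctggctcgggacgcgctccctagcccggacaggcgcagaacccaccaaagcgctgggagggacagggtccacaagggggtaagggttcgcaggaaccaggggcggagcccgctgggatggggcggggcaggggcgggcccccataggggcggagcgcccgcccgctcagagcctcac
Notch3: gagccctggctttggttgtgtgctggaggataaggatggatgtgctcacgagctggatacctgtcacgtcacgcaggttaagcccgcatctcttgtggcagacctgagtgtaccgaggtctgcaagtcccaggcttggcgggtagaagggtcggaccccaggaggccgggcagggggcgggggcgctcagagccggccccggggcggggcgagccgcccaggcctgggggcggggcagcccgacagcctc
Dtx1: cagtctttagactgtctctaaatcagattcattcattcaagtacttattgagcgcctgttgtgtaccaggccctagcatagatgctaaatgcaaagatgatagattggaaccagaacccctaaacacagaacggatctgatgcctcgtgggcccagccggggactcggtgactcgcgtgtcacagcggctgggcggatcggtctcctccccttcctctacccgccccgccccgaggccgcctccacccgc
Ptcra: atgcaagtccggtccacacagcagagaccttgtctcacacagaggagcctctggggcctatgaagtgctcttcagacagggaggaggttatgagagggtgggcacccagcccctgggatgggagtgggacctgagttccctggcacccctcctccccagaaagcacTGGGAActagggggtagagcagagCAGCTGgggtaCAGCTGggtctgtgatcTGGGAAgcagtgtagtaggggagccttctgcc
Hes5: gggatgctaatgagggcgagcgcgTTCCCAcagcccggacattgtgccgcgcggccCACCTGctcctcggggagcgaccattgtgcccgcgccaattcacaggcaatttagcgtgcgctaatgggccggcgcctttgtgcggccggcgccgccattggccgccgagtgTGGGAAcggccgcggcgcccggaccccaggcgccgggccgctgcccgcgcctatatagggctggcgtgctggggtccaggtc

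The windows lie at chr2:26503823-26504072, minus strand (Notch1), chr17:32166891-32167140, minus strand (Notch3), chr5:120711670-120711919, minus strand (Dtx1), chr17:46763713-46763962, minus strand (Ptcra) and chr4:154960673-154960922, plus strand (Hes5). The windows of Notch1, Notch3 and Dtx1 held neither motif. The Ptcra window held TGGGAA at bases 84 to 79 and 32 to 27 before the start, with CANNTG between them at 60 to 55 and 49 to 44. The Hes5 window held TGGGAA at bases 226 to 221 and 82 to 77, on opposite strands and each preceded by G on its own strand, and CANNTG at 194 to 189. Of the 9 members with a promoter entry (Hes1 has none), 2 held TGGGAA, namely Rbpj and Ptcra, and 3 held CANNTG, namely Rbpj, Ptcra and Nrarp. Over all 32851 RefSeq promoter windows of the same length, TGGGAA was found in 21.6%, GTGGGAA in 5.42% and CANNTG in 66.2%.

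Notch1, Notch3 and Dtx1 rose in homozygous KO thymus, to 2.08, 2.31 and 3.03 times the wild-type level. The other 7 genes did not pass the test. In bulk tissue, more or fewer cells of a type and more or less RNA per cell cannot be told apart. Set against wild type, homozygous KO had 3 of the 10 called higher and 0 lower (edgeR quasi-likelihood test, Benjamini-Hochberg adjusted p under 0.05 over all tested features). Over all features, 12.5% were called higher and 13.2% lower. An unadjusted p under 0.05 was found for 4 of the 10 and for 37.4% of all features, and DESeq2 called 4 of the 10 higher, beside 12.7% of its features called higher and 13.4% lower. The median log2 fold change of the 10 genes was 0.02, beside -0.01 over all tested features. For heterozygous KO, edgeR and DESeq2 each called 0 of the 10 against wild type, and 0 had an unadjusted p under 0.05. Of all features, 0.0154% were called there and 7.28% had an unadjusted p under 0.05. In homozygous against heterozygous KO the same 3 genes were called higher and 0 lower (unadjusted p under 0.05 for 4 of the 10 and 28.8% of all features), beside 7.63% of all features called higher and 9.50% called lower. The 2 homozygous comparisons share the homozygous libraries and are not independent.

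**Figure D1:**
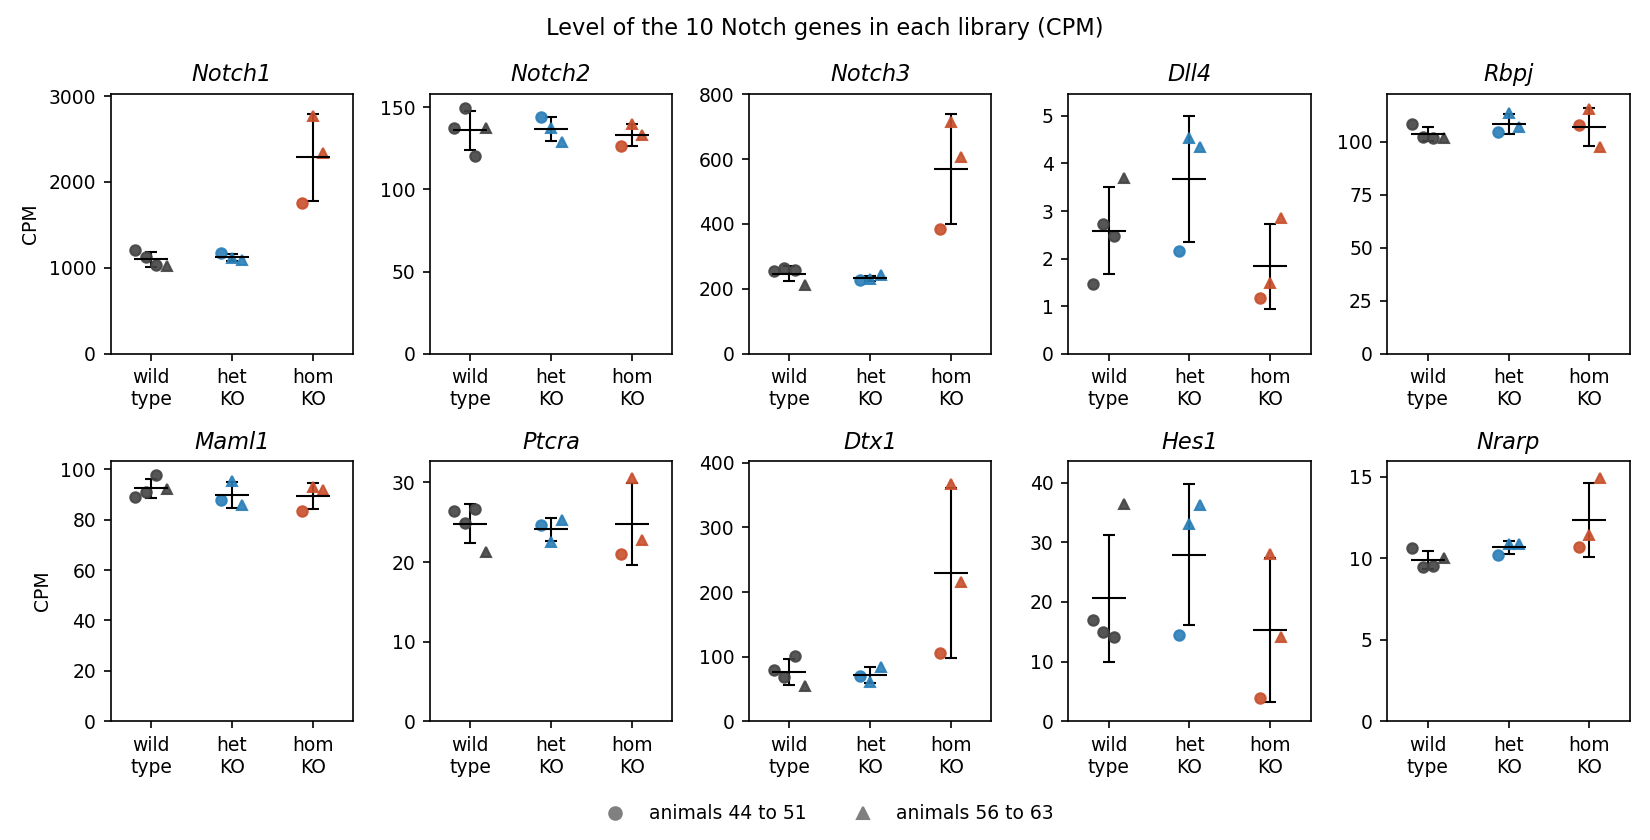
CPM of the 10 Notch genes in each library, by genotype, on linear axes that start at 0. Circles are animals 44 to 51 and triangles animals 56 to 63, and the bars show the mean ± SD. Notch1, Notch3 and Dtx1 lie above all controls in the 3 homozygous KO libraries, and within that group the circle is the lowest.

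The receptor Notch1 (ENSMUSG00000026923, chromosome 2) was the most abundant of the 10. It reached 1749.6, 2767 and 2341 CPM in homozygous KO. It lay at 1169.7, 1112 and 1089 CPM in heterozygous KO and at 1209.9, 1128, 1032 and 1022 CPM in wild type. Every homozygous library was therefore above every control, a pattern that 16.3% of all tested features showed against wild type and 16.5% against heterozygous KO, with 16.4% and 16.8% showing the reverse. The heterozygous and wild-type ranges overlapped. The log2 fold change in homozygous KO was 1.06 against wild type (SE 0.13, adjusted p 0.00014) and 1.02 against heterozygous KO (SE 0.14, adjusted p 0.00044). The heterozygous value was 0.03 against wild type, with a 95% interval of -0.24 to 0.31.

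Notch3 (ENSMUSG00000038146, chromosome 17), the second receptor that is abundant in immature thymocytes, followed the same order of libraries within homozygous KO. Its level there was 385, 715 and 607 CPM. In heterozygous KO it was 226, 229 and 242 CPM, and in wild type 256, 263, 257 and 212 CPM. The lowest homozygous library stood above the highest control. The log2 fold change was 1.21 against wild type (SE 0.16, adjusted p 0.00033) and 1.29 against heterozygous KO (SE 0.18, adjusted p 0.00053). The heterozygous difference from wild type was -0.09 (95% interval -0.45 to 0.27).

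Notch2 (ENSMUSG00000027878, chromosome 3), a receptor better known from B cells and myeloid cells, stayed within 121 to 149 CPM in all 10 libraries. It was measured at 127, 139.8 and 133 CPM in homozygous KO, inside the wild-type range. Its log2 fold change was -0.03 (95% interval -0.19 to 0.13) in homozygous KO and 0.01 (-0.15 to 0.17) in heterozygous KO, each against wild type. Notch4, which is known from endothelium and is the only receptor outside the 10, differed by -0.24 between homozygous KO and wild type on the same scale (adjusted p 0.49).

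Because receptor transcripts differ in length, their levels were set side by side as CPM per kilobase of exon. On that scale Notch1 made up 64.0% ± 1.4 (SD, n = 4) of the summed level of the 4 receptors in wild type, 65.4% ± 0.96 (SD, n = 3) in heterozygous KO and 66.1% ± 1.1 (SD, n = 3) in homozygous KO. The Notch3 share was 25.3% ± 1.7, 23.8% ± 1.3 and 28.6% ± 2.2 in the same order. The Notch2 share was 9.64 to 11.5% in wild type and 10.1 to 10.8% in heterozygous KO. In homozygous KO it was 6.44, 4.38 and 4.90%, below every control. These shares derive from the levels above and were not tested separately.

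**Figure D2:**
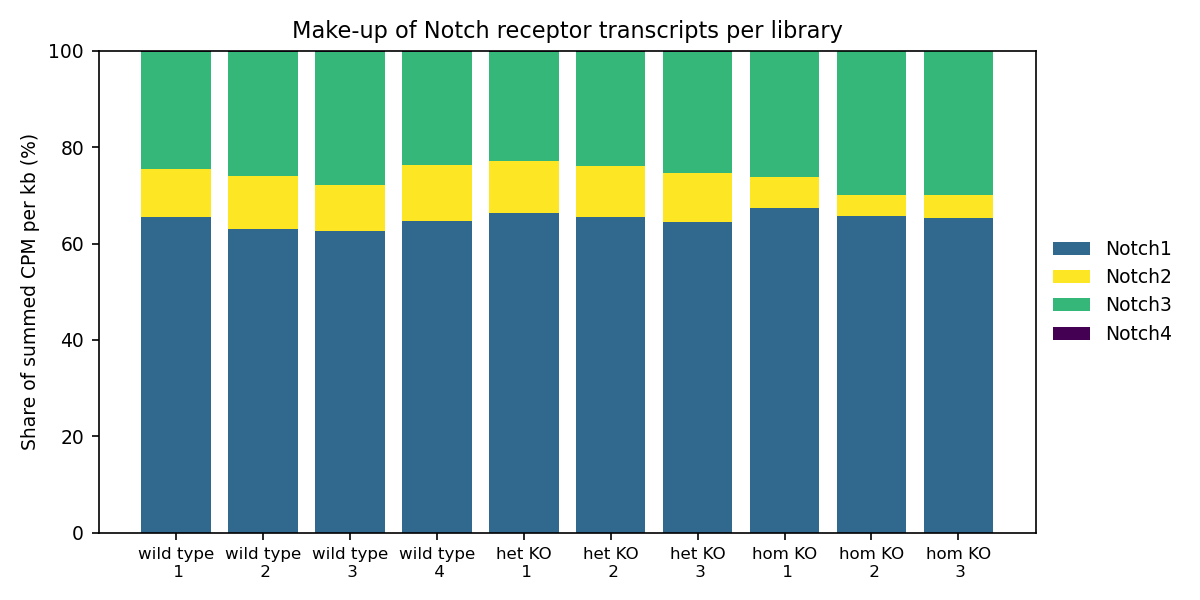
Share of each Notch receptor in the summed receptor level (CPM per kilobase of exon, in %), one bar for each library. The Notch2 band is narrower in the 3 homozygous KO libraries (4.38 to 6.44%) than in the 7 controls (9.64 to 11.5%), and the Notch4 band is too thin to see.

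Dll4 (ENSMUSG00000027314, chromosome 2), the thymic Notch ligand, was the least abundant of the 10. It was found at 1.16, 1.49 and 2.86 CPM in homozygous KO, at 2.15, 4.54 and 4.35 CPM in heterozygous KO, and at 1.47, 2.72, 2.48 and 3.69 CPM in wild type. All groups overlapped. Relative to wild type, its log2 fold change was -0.51 in homozygous KO (95% interval -1.36 to 0.34, adjusted p 0.37) and 0.50 in heterozygous KO (-0.33 to 1.33). Between the 2 KO groups it was -1.01, homozygous minus heterozygous (-1.90 to -0.11, adjusted p 0.13). The counts behind these values were 60 to 434 a library. The last difference was called without homozygous KO 3 (-1.48, adjusted p 0.040) and with Xist as a term (-1.48, adjusted p 0.012). With animal number as a term it was called too (-0.99, adjusted p 0.024), as was the difference of homozygous KO from wild type (-0.89, adjusted p 0.035).

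The gene with the second most similar profile to Dll4 was Psmb11, a proteasome subunit made by cortical thymic epithelium, the cell that makes Dll4. Per 100 counts of Psmb11, homozygous KO had 18.3, 24.0 and 23.7 counts of Dll4, heterozygous KO had 29.2, 28.1 and 30.8, and wild type had 20.9, 23.6, 28.2 and 34.9. This ratio, computed after the likeness was seen, overlapped between homozygous KO and wild type and was lower in homozygous than in heterozygous KO in every library. Per 100 counts of Foxn1, a thymic epithelium marker, Dll4 had 34.6, 55.7 and 46.2 counts in homozygous KO. It had 76.5, 91.4 and 79.3 in heterozygous KO and 55.05, 60.4, 80.6 and 75.1 in wild type. Here homozygous KO and wild type overlapped only narrowly. Neither ratio was tested. The summed level of the 8 thymic epithelium markers found in the table (Ccl25 of the list of 9 was not found) was 116 to 235 CPM in homozygous KO. It was 109 to 213 in heterozygous KO and 110.2 to 163 in wild type. Of the 8 markers 1 was called higher and 1 lower in homozygous KO against wild type, beside 12.5% and 13.2% of all features. They were Krt5 (log2 fold change 2.77, edgeR adjusted p 0.00055) and Aire (-2.37, adjusted p 0.0013), named after their values were seen.

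Rbpj (ENSMUSG00000039191, chromosome 5), the DNA-binding partner of every Notch receptor, was held in a narrow range of 97.7 to 116 CPM. Homozygous KO had 108, 116 and 97.7 CPM, and wild type had 109, 102, 102 and 102 CPM. The log2 fold change was 0.05 in homozygous KO (95% interval -0.09 to 0.18) and 0.07 in heterozygous KO (-0.07 to 0.20) against wild type. Maml1 (ENSMUSG00000050567, chromosome 11), the coactivator, ranged from 83.6 to 97.7 CPM over the 10 libraries. Its differences from wild type were -0.05 (-0.18 to 0.08) in homozygous KO and -0.04 (-0.17 to 0.09) in heterozygous KO. Rbpj has processed pseudogene copies, with which reads may have been shared.

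Of the 4 targets, Dtx1 (ENSMUSG00000029603, chromosome 5), which encodes a ubiquitin ligase that binds the Notch intracellular part, showed the largest difference among the 10 genes. Its level was 106, 368 and 215 CPM in homozygous KO. It was 70.1, 60.6 and 83.8 CPM in heterozygous KO and 79.9, 69.1, 101 and 53.8 CPM in wild type. The lowest homozygous library lay only just above the highest wild type, while the other 2 were far above all controls. The log2 fold change was 1.60 against wild type (SE 0.33, adjusted p 0.0049) and 1.68 against heterozygous KO (SE 0.36, adjusted p 0.0087). It was 1.09 without homozygous KO 2 (adjusted p 0.017), and the call was lost when only the 2 wild types with a single wt in their title (3 and 4) served as controls (1.57, adjusted p 0.059).

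Nrarp (ENSMUSG00000078202, chromosome 2), a small protein that dampens Notch signalling and is itself induced by it, was at 10.7, 11.4 and 14.9 CPM in homozygous KO, at 10.2, 10.9 and 10.9 in heterozygous KO and at 10.6, 9.46, 9.50 and 10.04 in wild type. Homozygous KO did not overlap wild type, as was the case for 16.3% of all tested features in this direction, but the gap was small. The log2 fold change was 0.32 (95% interval 0.06 to 0.57) and missed the threshold (edgeR adjusted p 0.070), whereas DESeq2 called it (adjusted p 0.035). Without homozygous KO 1 it was 0.41 and called (adjusted p 0.031), and without homozygous KO 3 it was 0.16 (adjusted p 0.30).

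Ptcra (ENSMUSG00000036858, chromosome 17) encodes the pre-T-cell receptor alpha chain and is driven by Notch and E proteins together. It was at 21.0, 30.6 and 22.8 CPM in homozygous KO, at 24.6, 22.5 and 25.3 in heterozygous KO and at 26.4, 24.9, 26.7 and 21.3 in wild type. The groups overlapped fully. Relative to wild type, Ptcra differed by 0.00 as rounded in homozygous KO (95% interval -0.28 to 0.28) and -0.04 in heterozygous KO (-0.32 to 0.24).

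Hes1 (ENSMUSG00000022528, chromosome 16), the repressor that is the best known Notch target, varied most among the libraries. It was at 3.91, 28.0 and 14.2 CPM in homozygous KO, at 14.4, 33.1 and 36.3 in heterozygous KO and at 17.0, 14.9, 14.1 and 36.5 in wild type. The values went with animal number within each genotype, being lower in animals 44 to 51 than in animals 56 to 63. The log2 fold change was -0.43 in homozygous KO (95% interval -1.67 to 0.81, adjusted p 0.62) and 0.43 in heterozygous KO (-0.78 to 1.65, adjusted p 0.92), each against wild type. Without homozygous KO 1 the first of these was 0.02, and without wild type 4 it was 0.00. With animal number as a term it was -1.27 and called (adjusted p 0.0080), and homozygous minus heterozygous KO was -1.05 and called as well (adjusted p 0.019).

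**Figure D3:**
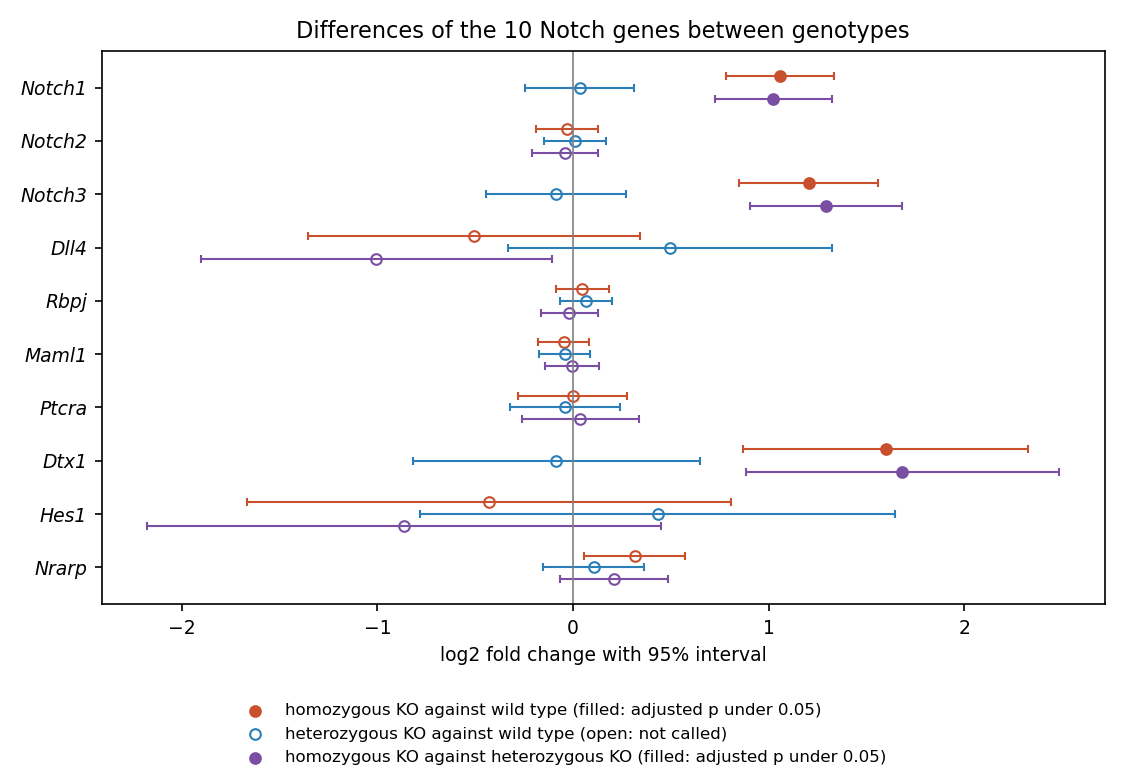
Log2 fold changes of the 10 Notch genes with 95% intervals in the 3 comparisons, filled where the adjusted p is under 0.05. The 6 filled points belong to Notch1, Notch3 and Dtx1, all in comparisons with homozygous KO, and the intervals of Rbpj, Maml1 and Notch2 are the narrowest.

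The order of the 10 genes in wild type was set on the scale of CPM per kilobase of exon. Notch1 stood first at 77.1 ± 6.2 (SD, n = 4) and Notch3 second at 30.5 ± 2.9, with no overlap between them or with the next gene. Then came Ptcra at 19.3 ± 1.9, Maml1 at 16.7 ± 0.67, Dtx1 at 14.4 ± 3.7, Notch2 at 12.6 ± 1.1, Hes1 at 10.1 ± 5.2 and Rbpj at 8.13 ± 0.26, and each of these neighbours overlapped the next. Nrarp followed at 3.84 ± 0.21 and Dll4 was last at 0.672 ± 0.24, both clear of their neighbours.

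Animal number went with the level of some members. In an edgeR fit with genotype and block together, Hes1 was 1.60 higher on the log2 scale in animals 56 to 63 than in animals 44 to 51 (SE 0.24, adjusted p 0.0042) and Dll4 was 0.88 higher (SE 0.23, adjusted p 0.048), while the other 8 members were not called. Of all features, 3.45% were called higher and 3.31% lower in the later block. Hey1, a Notch target known from endothelium and stroma, was the other pathway gene called higher there (1.69, SE 0.17, adjusted p 0.00027). It was chosen after its values were seen. In wild type, Hey1 was at 1.15, 1.11 and 1.01 CPM in animals 44 to 51 and at 3.60 CPM in animal 56. Within each block Hes1 and Dll4 were lower in homozygous KO than in wild type. The Hes1 difference was -1.96 in animals 44 to 51 and -0.87 in animals 56 to 63, and the Dll4 difference was -0.88 and -0.84. With block as a term, both passed the test in homozygous KO against wild type and against heterozygous KO, with the values given above. That fit called 5 of the 10 members in each homozygous comparison, 3 higher and 2 lower. Of all features it called 13.1% higher and 14.1% lower against wild type, and 10.3% higher and 11.4% lower against heterozygous KO. The earlier block has 1 library of each KO group and the later one has 1 of the wild type, so the within-block differences rest on single libraries.

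**Figure D4:**
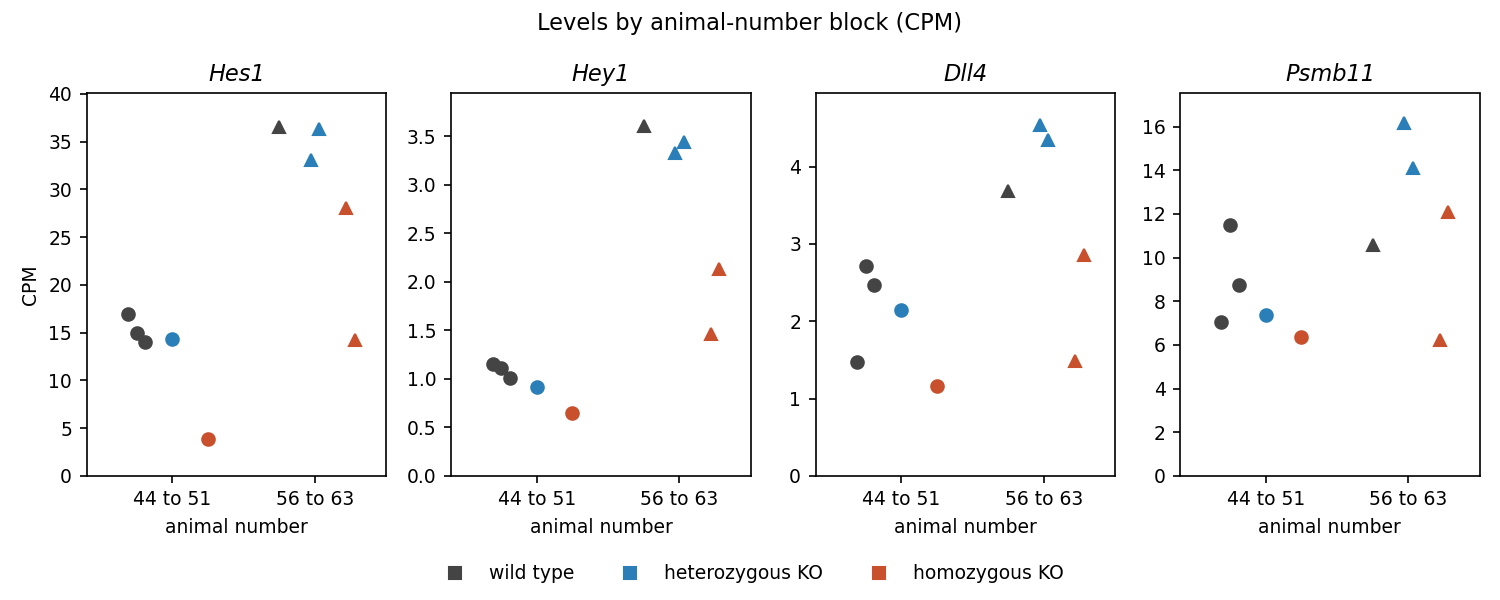
CPM of Hes1, Hey1, Dll4 and the epithelial gene Psmb11 by animal-number block, coloured by genotype, on linear axes that start at 0. For Hes1 and Hey1 the wild-type and heterozygous libraries fall into a low cluster in animals 44 to 51 and a high one in animals 56 to 63, and the homozygous KO library or libraries lie lowest in each block for Hes1 and Hey1.

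The rise of the 3 called members was present in both blocks but was smaller in the earlier one. For Notch1 the homozygous difference from wild type was 0.64 in animals 44 to 51 and 1.32 in animals 56 to 63. For Notch3 it was 0.58 and 1.64, and for Dtx1 it was 0.37 and 2.39. An interaction term, added after the within-block values were seen, was called for Notch3 (1.07, SE 0.13, adjusted p 0.041) and not for Notch1 (0.68, adjusted p 0.25) or Dtx1 (2.09, adjusted p 0.21). It was called for 0.0410% of all features. Against heterozygous KO the differences in the 2 blocks were 0.58 and 1.21 for Notch1, 0.77 and 1.49 for Notch3, and 0.60 and 1.98 for Dtx1. Ptcra differed from wild type by -0.31 and 0.31 in the 2 blocks, and its interaction was not called (0.64, adjusted p 0.43).

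Summed levels of stage and cell type markers were set beside these differences. The double-negative list (Kit, Il2ra, Cd44, Il7r, Lyl1, Hhex) summed to 106, 337 and 206 CPM in homozygous KO 1 to 3, to 213 to 281 CPM in heterozygous KO and to 209 to 366 CPM in wild type. Its sum was dominated by Il2ra, and it took the same order over the 3 homozygous libraries as Dtx1. So did the fibroblast and mural list (23.0, 60.9 and 34.7 CPM, with 3 of 8 genes called higher and 1 lower) and the myeloid list (35.4, 81.5 and 58.1 CPM, with 1 of 6 higher and 3 lower). The same order was found for the endothelium list (152, 161 and 158 CPM, with 1 of 7 higher, 0 lower and 1 not tested) and the B cell list (6.34, 8.92 and 8.22 CPM, with 0 of 5 higher and 5 lower). Other orders were taken by the thymocyte (3509, 3710 and 3499 CPM), double-positive (7982, 8279 and 8307 CPM) and mature single-positive lists (209, 161 and 147 CPM). The thymic epithelium (116, 124 and 235 CPM) and erythroid lists (1296, 1464 and 142 CPM) also differed from the Dtx1 order. Of the 6 genes of the double-negative list 0 were called higher and 4 lower in homozygous KO against wild type (edgeR). Of all features 12.5% were called higher and 13.2% lower, the background for each count of called markers here. The 8 double-positive markers summed to 7982 to 8307 CPM in homozygous KO and to 9678 to 11020.0 CPM in wild type, with 2 called higher and 2 lower. The 5 mature single-positive markers summed to 147 to 209 CPM in homozygous KO and 256 to 358 CPM in wild type, with 0 higher and 4 lower. The B cell list summed to 6.34 to 8.92 CPM in homozygous KO against 29.9 to 47.5 CPM in wild type, and all 5 of its genes were called lower. The part of these cell types in the levels of Notch1, Notch3 and Dtx1 was not tested.

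Beyond the 10, 58 further genes of the pathway were listed by role, of which 56 passed the filter on low counts (Rbpjl and Hey2 did not). In homozygous KO against wild type 4 were called higher and 9 lower, beside 12.5% and 13.2% of all features, and their median log2 fold change was -0.03 beside -0.01. In heterozygous KO against wild type edgeR and DESeq2 each called 0 of the 56, and 3 had an unadjusted p under 0.05, beside 7.28% of all features. In homozygous against heterozygous KO 1 was called higher (Spen) and 6 lower (Psen2, Lfng, Maml2, Hes5, Il7r, Igf1r), beside 7.63% and 9.50% of all features. The first count was 8 without homozygous KO 3 and 7 with wild type 3 and 4 as the only controls. The last was 11 without homozygous KO 1, and 4 without homozygous KO 2, heterozygous KO 1 or heterozygous KO 3.

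**Figure D5:**
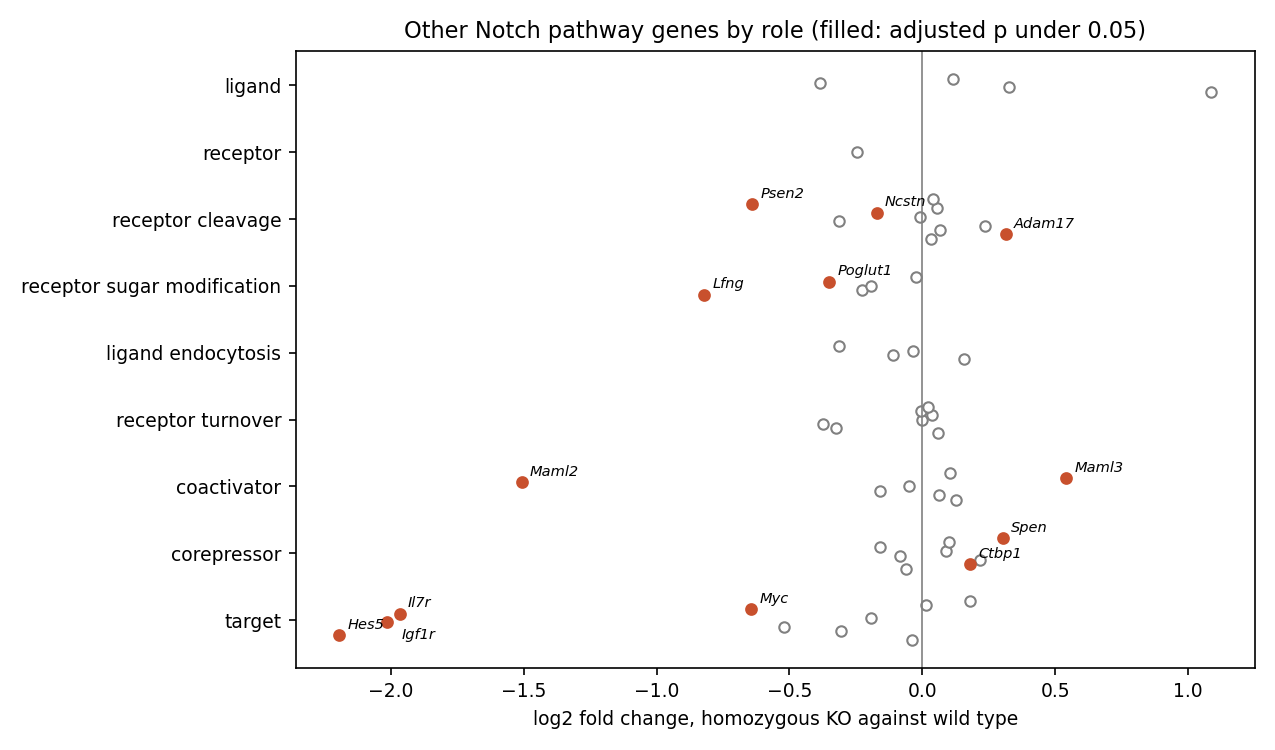
The 56 tested pathway genes other than the 10, grouped by role and plotted by log2 fold change of homozygous KO over wild type, with a point for each gene, filled and named where the adjusted p is under 0.05. The 13 filled points are 4 rises of 0.18 (Ctbp1) to 0.54 (Maml3) and 9 falls, which reach -1.51 for Maml2, -1.97 for Il7r, -2.02 for Igf1r and -2.19 for Hes5.

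Among ligands, their endocytosis factors, and factors of receptor turnover, 0 of 4, 0 of 4 and 0 of 7 genes were called in homozygous KO against wild type by edgeR, and 0, 1 and 1 had an unadjusted p under 0.05. Of all features 12.5% were called higher, 13.2% were called lower and 37.4% had an unadjusted p under 0.05. Of the 10 genes for receptor cleavage 1 was called higher and 2 lower. Adam17, a protease that can shed receptor ectodomains, was at 122, 116 and 118 CPM in homozygous KO and at 85.7 to 102 CPM in wild type (log2 fold change 0.31, SE 0.08, adjusted p 0.019), a call lost without homozygous KO 1 (0.29, adjusted p 0.056) and under scaling to library totals alone (0.22, adjusted p 0.072). It was also lost with Xist as a term (0.29, adjusted p 0.055) and with wild type 1 and 2 as the only controls (0.25, adjusted p 0.11). Psen2, a catalytic subunit of gamma-secretase, fell from 7.20 to 8.69 CPM in wild type to 4.76, 5.12 and 5.38 CPM (log2 fold change -0.64, SE 0.11, adjusted p 0.0015). Ncstn, a further gamma-secretase subunit and the second gene of this role called lower (-0.17, adjusted p 0.034, with up to 0.15 over the alternatives), was named after its values were seen.

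Of the 5 genes that add sugars to the receptors 0 were called higher and 2 lower, beside 12.5% and 13.2% of all features. The 2 were Lfng and Poglut1 (-0.35, adjusted p 0.025, with up to 0.15 over the alternatives), the latter named after its values were seen. Lfng, the Fringe glycosyltransferase that strengthens the response of Notch to Delta ligands, was at 15.9, 12.4 and 10.03 CPM in homozygous KO, below all controls (17.8 to 31.8 CPM). Its log2 fold change was -0.82 against wild type (SE 0.20, adjusted p 0.011) and -0.67 without homozygous KO 3, where the call was lost (adjusted p 0.050).

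Of the 7 coactivators outside the members 1 was called higher and 1 lower, beside 12.5% and 13.2% of all features. These were the Mastermind genes Maml3 and Maml2, in that order. Maml2 was at 9.75, 7.67 and 9.52 CPM in homozygous KO, at 24.0, 22.8 and 22.3 in heterozygous KO and at 23.1, 24.3, 28.7 and 25.9 in wild type. Homozygous KO lay far below the other groups, which overlapped. Its log2 fold change was -1.51 against wild type (SE 0.11, adjusted p 4.4e-06). Maml3 was at 14.3, 25.3 and 22.2 CPM in homozygous KO and at 13.3 to 14.9 CPM in wild type (log2 fold change 0.54, SE 0.15, adjusted p 0.023). The homozygous library of the earlier block lay within the wild-type range, and the Maml3 call was lost without homozygous KO 2 (0.37, adjusted p 0.096), homozygous KO 3 (0.49, adjusted p 0.072) or wild type 2 (0.51, adjusted p 0.061). It was also lost with animal number as a term (0.45, adjusted p 0.057), with a replicate block (0.51, adjusted p 0.068), under scaling to library totals alone (0.45, adjusted p 0.058), and with wild type 1 and 2 (0.54, adjusted p 0.099) or 3 and 4 (0.54, adjusted p 0.12) as the only controls. Of 8 tested corepressors 2 were called higher and 0 lower, beside the same shares of all features. Spen, a large corepressor that binds RBPJ, reached 377, 459 and 441 CPM in homozygous KO, above 324 to 375 CPM in wild type (log2 fold change 0.30, SE 0.07, adjusted p 0.011), a call lost under scaling to library totals alone (0.21, adjusted p 0.062) and with wild type 3 and 4 as the only controls (0.28, adjusted p 0.093). The second was Ctbp1 (0.18, adjusted p 0.016, with up to 0.21 over the alternatives), named after its values were seen.

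Of the 10 tested targets outside the members 0 were called higher and 4 lower, beside 12.5% and 13.2% of all features. Hes5, a repressor of the Hes family, was at 0.148, 0.0293 and 0.155 CPM in homozygous KO, at 0.420, 0.712 and 0.675 in heterozygous KO and at 0.491, 0.409, 0.450 and 0.677 in wild type. It was rare in all groups, down to 3 counts in 1 library, yet homozygous KO lay below every control. Its log2 fold change was -2.19 against wild type (SE 0.48, adjusted p 0.0068) and -2.43 against heterozygous KO (SE 0.50, adjusted p 0.0063).

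The other 3 called targets were named after their values were seen. Igf1r, the receptor for insulin-like growth factor 1, was at 11.1, 13.1 and 13.7 CPM in homozygous KO and at 45.8 to 55.6 CPM in wild type (log2 fold change -2.02, SE 0.10, adjusted p 5.1e-07). Il7r, the interleukin 7 receptor that early and mature thymocytes carry, was at 11.7, 12.6 and 7.34 CPM against 27.6 to 52.9 CPM (log2 fold change -1.97, SE 0.24, adjusted p 0.00015). Myc, the growth regulator, was at 100.3, 87.6 and 73.3 CPM against 94.9 to 155 CPM (log2 fold change -0.64, SE 0.17, adjusted p 0.015). The Myc groups overlapped, and the call was lost without homozygous KO 3 (adjusted p 0.065) and with wild type 3 and 4 as the only controls (adjusted p 0.13). Il2ra, a Notch target of the double-negative stage, was at 68.5, 289 and 162 CPM in homozygous KO against 127 to 233 CPM in wild type and was not called (adjusted p 0.74).

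For each member except Nrarp, the 2 genes with the most similar log2 CPM over the 10 libraries were found among 9795 tested genes whose mean log2 CPM reached 2. The values share libraries and the homozygous KO group stands apart for several members, so r within genotypes is given beside the overall r as a description. For Notch1 they were Ptprf (r 0.989, within genotypes 0.969) and Egln3 (0.985, within 0.868). For Notch3 they were Armc7 (0.990, within 0.953) and Nsg2 (0.988, within 0.950). For Dtx1 they were Tcrg-C4, a gamma-chain constant segment (0.989, within 0.973), and Rasal1 (0.986, within 0.963). For Hes1 they were Dcaf5 (0.977, within 0.978) and Frat2 (0.958, within 0.981), and for Dll4 they were Mreg (0.948, within 0.930) and Psmb11 (0.936, within 0.923). The pairs for Notch2 (Glg1, Tbck), Rbpj (Tmed10, Vmp1), Maml1 (Sfn, Rnf31) and Ptcra (Ahcyl2, Ablim1) had r of 0.882 to 0.918.

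Among the members themselves, Notch1, Notch3 and Dtx1 were alike over the 10 libraries, with r of 0.983 for Notch1 and Notch3, 0.962 for Notch3 and Dtx1 and 0.927 for Notch1 and Dtx1. These coefficients rest largely on the homozygous KO group, which is above the others for all 3. Hes1 and Dll4 had r of 0.695 with each other, and Hes1 had r of -0.24 with Notch1.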

How the data were processed

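RNA of 10 mouse thymi was sequenced. The deposited table holds raw counts per gene, which the authors made, per the labels, with CASAVA, STAR 2.4.1d and HTSeq 0.6.1p1 on NCBIM37/mm9. The annotation release and strand setting are not given in the sources used here, so reads of a gene and of one overlapping it on the other strand could not be told apart. In GENCODE vM21, 8 of the 10 Notch genes overlap another gene, 2 of them on the same strand. Features without an Ensembl ID (908) took 1.74 to 2.29% of counts and stayed in the fit. Symbols and exon lengths came from GENCODE vM21, and promoters from RefSeq.

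Groups followed the sample titles. Column names of wild type 3 and 4 add the word het, and the group of the titles was kept. Counts were filtered with filterByExpr, scaled by TMM and fitted in edgeR 4.0.16 (R 4.3.3) with the quasi-likelihood test over all 10 libraries. Adjusted p is Benjamini-Hochberg over 19511 features, called under 0.05. The code was tested on simulated data. CPM are TMM-scaled, and log2 fold changes are from the fit. Nothing in the labels says whether libraries of a group are from separate litters. The p-values set differences between groups against the spread of these libraries within groups. Totals were 39.8 to 122 M counts, and counting error weighs most on the rare transcripts (Hes5, Hey1, Dll4).

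The members and lists were chosen with earlier results of these data known. The text names all members, in each role of the pathway list the called gene with the largest rise and the largest fall in homozygous KO against wild type, and any called in heterozygous KO. It also names the 2 genes most like each member, except for Nrarp, where they are not reported here. Alternatives were other scalings, DESeq2 1.42.0, no filter, fewer libraries, and terms for replicate number, animal number and Xist.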

Additional observations from a re-analysis of the deposited data

Results flagged for a closer look

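Among the wild-type values of the 10 genes, 3 had a library far from the other 3 by Dixon's ratio, past its 95% critical value for 4 values, which chance passes in about 1 of 20 groups. Notch3 was lowest in wild type 4, at 212 CPM (ratio 0.868). Rbpj was highest in wild type 1, at 109 CPM (ratio 0.932), although its range was narrow. Hes1 was highest in wild type 4, at 36.5 CPM (ratio 0.870), the only wild type with an animal number in the block from 56 to 63.

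The homozygous KO effect on Notch3 differed between the blocks of animal numbers by an interaction of 1.07 on the log2 scale (edgeR, SE 0.13, adjusted p 0.041), being the larger in animals 56 to 63. The interaction was added after the data were seen, and the homozygous arm of the earlier block and the wild-type arm of the later one are 1 library each.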

How the results depend on the processing

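Of 580 recomputed values of the 10 genes (each gene, comparison and alternative), 531 kept direction and side of the threshold, 39 turned sign without a call, 9 gained a call and 1 lost it, that of Dtx1. Notch1 and Notch3 stayed called in both homozygous comparisons under every alternative run. In homozygous KO, the members called against wild type were 2 with wild type 3 and 4 alone and 4 by DESeq2. With animal number as a term they were 5, and likewise 5 against heterozygous KO. The other pathway genes called fell from 13 to 7 with wild type 3 and 4 alone, and to 8 to 14 on leaving out 1 library. Against heterozygous KO they went from 7 to 11 with animal number, and to 4 to 11 on leaving out 1 library. Over all features, 5030 calls became 2670 with wild type 3 and 4 alone, the 3 heterozygous calls became 58 by DESeq2 and 2 to 6 on leaving out 1 library, and the 3342 calls against heterozygous KO became 2153 to 3370. The cause was not tested. Scaling to library totals alone moved the median of all features from -0.01 to -0.11 in homozygous KO against wild type. It moved the share of higher calls from 48.6 to 29.0% (26.9% instead of 44.6% against heterozygous KO).

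Same-numbered libraries correlated by -0.11 to 0.29 in their deviations, so the numbers do not pair them. With a replicate block, which has no partner for wild type 4, 3 members were called against wild type, 4 against heterozygous KO (Dll4 -1.01, adjusted p 0.022) and 0 in heterozygous KO, where 5 features of all were called.

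Sign changes of uncalled log2 values were these. In heterozygous KO against wild type, Notch1 turned to -0.0048 with animal number, -0.024 with Xist and -0.057 with wild type 1 and 2 alone, Notch2 to -0.066 with wild type 1 and 2 alone, Rbpj to -0.033 and Maml1 to 0.0066 with Xist, Ptcra to 0.0088 with wild type 3 and 4 alone, and Hes1 to -0.22 with animal number. In homozygous KO against wild type, Notch2 turned to 0.048 with wild type 3 and 4 alone, Rbpj to -0.048 with library totals and -0.0057 with Xist, and Ptcra to 0.0038 with DESeq2 size factors, 0.0042 by DESeq2, 0.00068 with animal number and 0.046 with wild type 3 and 4 alone. Against heterozygous KO, Rbpj turned to 0.027 with Xist and Ptcra to -0.049 with library totals. Leaving out 1 library gave ranges against wild type of -0.085 to 0.017 (Notch2), -0.0028 to 0.11 (Rbpj), -0.17 to 0.10 (Ptcra) and -1.19 to 0.025 (Hes1) in homozygous KO, and -0.045 to 0.057 (Notch2), -0.11 to 0.011 (Ptcra) and -0.22 to 0.083 (Dtx1) in heterozygous KO. Against heterozygous KO they were -0.075 to 0.042 (Rbpj), -0.037 to 0.041 (Maml1) and -0.14 to 0.14 (Ptcra).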

Other observations

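Further Notch components showed values that no comparison above turned on. Jag1 and Jag2, the Jagged ligands, had log2 fold changes of -0.39 and 0.12 in homozygous KO against wild type (adjusted p 0.23 and 0.75), and Dll1 had 1.09 with a 95% interval of -0.09 to 2.27 (adjusted p 0.16). Fbxw7, the ubiquitin ligase that ends the life of the Notch intracellular part, differed by 0.00 as rounded (95% interval -0.12 to 0.12). Heyl, a target known from mural cells, had -0.52 (adjusted p 0.16). Pofut1, the fucosyltransferase that makes Notch receptors competent for ligand, was lower in animals 56 to 63 than in animals 44 to 51 by -0.23 on the log2 scale (SE 0.04, adjusted p 0.014), and Myc by -0.44 (SE 0.08, adjusted p 0.0092). These genes were named after their values were seen.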
